A study of Rattus norvegicus with 6 samples.

Results

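Neutrophils are the white blood cells that reach a damaged tissue first, and 8 rat genes that mark them or draw them in were followed here in the kidney: the chemokines Cxcl1 and Cxcl2, the receptors Cxcr2 and Csf3r, and the neutrophil proteins S100a8, S100a9, Mpo and Np4. A probe was taken as a member's if its transcript accession on the array is a RefSeq transcript of that gene. By this rule 7 of the 8 genes had a probe, with 11 probes in all, among 15284 genes of the array that could be given a symbol. Mpo, the peroxidase of the azurophil granule, had no matched probe and was not analysed here. Renal cortex came from 6 Sprague-Dawley rats, all male and 5 weeks old when purchased, and its total RNA was read on 1-colour (Cy3) Agilent arrays. The groups were NDMA, given N-nitrosodimethylamine at 4 mg/kg per day for 4 weeks (n = 3 rats), and water control, given water for the same 4 weeks (n = 3 rats). NDMA is a nitrosamine that cytochrome P450 enzymes turn into an alkylating agent. Each rat was a separate biological replicate, per the series' design text.

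Cxcl1 and Cxcl2 belong to the CXC chemokines that carry a Glu-Leu-Arg (ELR) motif before the first cysteines, and they attract neutrophils through the receptor Cxcr2. Csf3r binds granulocyte colony-stimulating factor, which drives the production of neutrophils in the bone marrow. S100a8 and S100a9 form calprotectin, the most abundant cytosolic protein complex of neutrophils, and Np4 is an alpha-defensin of their granules. A healthy renal cortex holds few neutrophils, most of them inside vessels.

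After 4 weeks of NDMA no member passed the test. Of the 11 member probes, 5 could be tested and 0 were called, where a probe is called if its Benjamini-Hochberg adjusted p over all 43118 tested probes in limma is under 0.05. Over all tested probes, 2.99% were called, 1080 of them higher and 209 lower in NDMA kidneys. Without adjustment, 1 of the 5 member probes had p under 0.05, as did 18.3% of all tested probes. That member probe read Cxcl1, which was 2.79-fold higher in NDMA kidneys with an adjusted p of 0.145. S100a8 and S100a9 averaged nearly the same signal in both groups, but the 3 water control rats spanned 2.30 log2 units for S100a8, against 0.60 log2 units in the 3 NDMA rats. In the plot of every probe by animal, the Cxcl1 groups stand apart and the others overlap.

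Signals are given as log2 of the processed Cy3 signal minus log2 of the 75th percentile of the same array, taken across its 61657 non-control probes, so 0 is the level of a bright probe of that array. A probe was tested if it was well above background, by the scanner software's own flag, on all 3 arrays of at least 1 group. Array signal depends on the probe as well as the transcript, so levels are compared between animals for the same probe and not between probes. In whole tissue, fewer cells of a type and less RNA per cell cannot be told apart. Between 43016 and 46248 probes were well above background on an array. All 16 renal cortex markers with a probe, of 17 listed, were well above background on all 6 arrays. Slide 1 held the 3 water control arrays and NDMA animal 1, and slide 2, scanned on another day, held NDMA animals 2 and 3. Slide and treatment can therefore be separated only through NDMA animal 1.

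**Figure D1:**
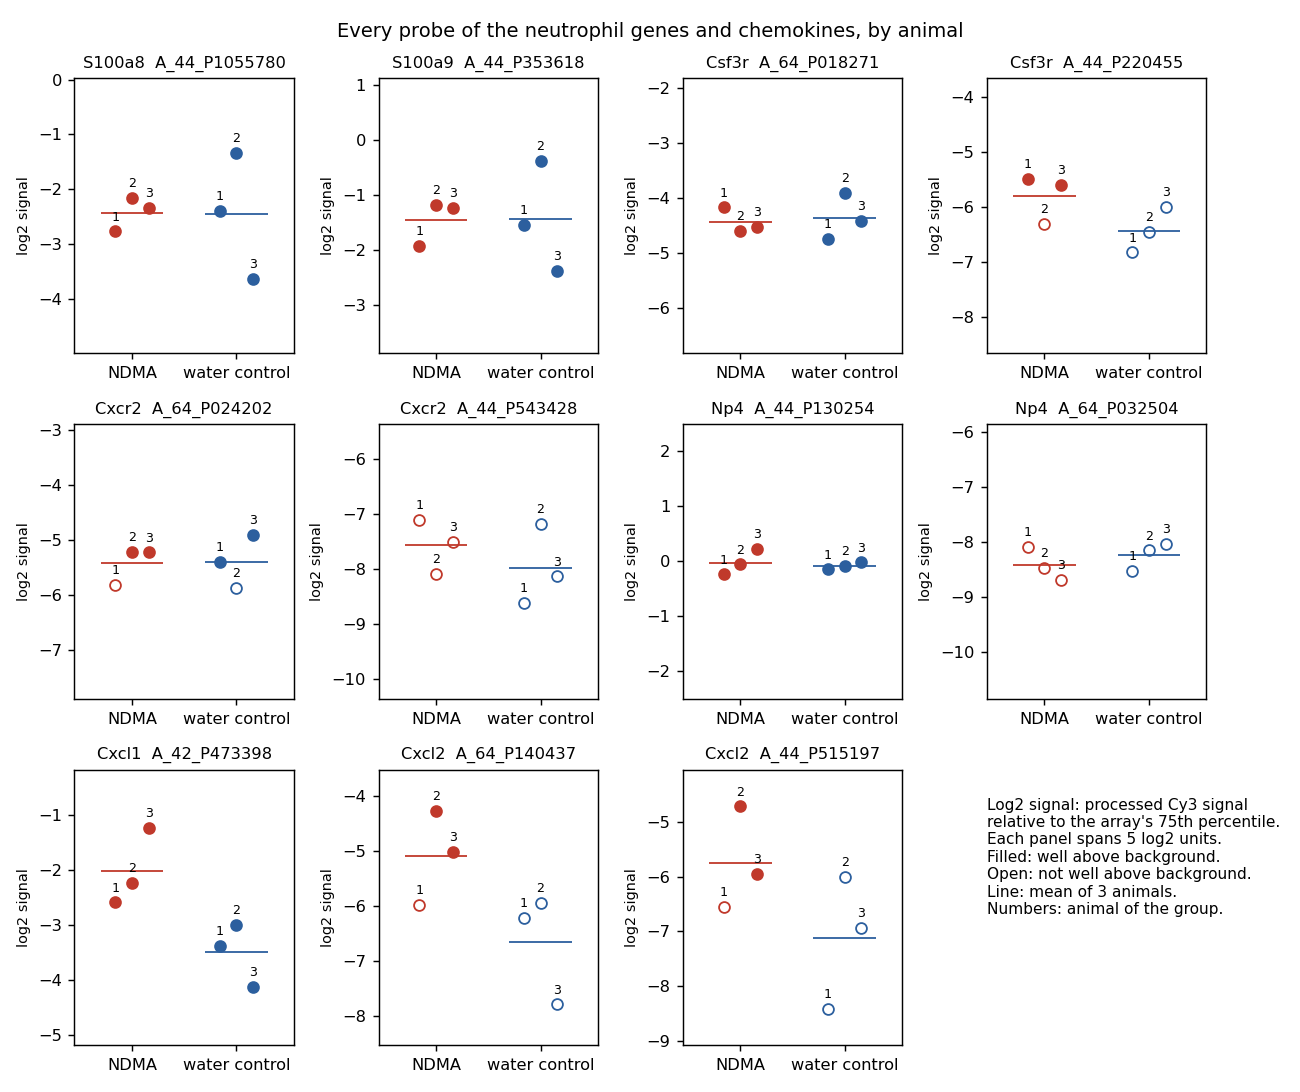
Log2 signal relative to the array's 75th percentile for each of the 11 member probes, NDMA on the left and water control on the right, with animals numbered and a line at the mean of 3 animals. Filled points were well above background and open points were not; the NDMA points for Cxcl1 lie between -2.58 and -1.24, all above the water control points.

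Cxcl1, a ligand of Cxcr2 that stressed epithelium, endothelium and macrophages secrete, was read by 1 probe (A_42_P473398), which was well above background on all 6 arrays. Its log2 signal was -2.58, -2.23 and -1.24 in NDMA animals 1, 2 and 3, and -3.37, -3.0 and -4.12 in water control animals 1, 2 and 3. Every NDMA animal lay above every water control animal, with NDMA animal 3 highest and water control animal 3 lowest. Groups that do not overlap in this direction were found for 10.9% of all tested probes, and in either direction for 26.9%. Cxcl1 was the only 1 of the 5 tested member probes whose groups did not overlap. The means were -2.02 ± 0.70 in NDMA and -3.50 ± 0.57 in water control (SD, n = 3 each). The log2 difference of 1.48 ± 0.42 (SE; 95% interval 0.47 to 2.48) corresponds to a fold of 2.79 (95% interval 1.39 to 5.60), with an adjusted p of 0.145 in limma. With slide as a block, which equals NDMA animal 1 against the water controls of its own slide, the log2 difference was 0.91 and the adjusted p was 0.711. Over all alternatives the adjusted p ran from 0.0941 to 0.711, so the call was not reached in any of them.

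Cxcl2, a second Cxcr2 ligand and the macrophage inflammatory protein of rodents, was dim and was not tested. Probe A_64_P140437 read -5.98, -4.26 and -5.01 in NDMA animals 1, 2 and 3, and -6.22, -5.94 and -7.79 in water control animals 1, 2 and 3. Probe A_44_P515197 read -6.56, -4.72 and -5.96 in NDMA, and -8.40, -6.01 and -6.93 in water control. Both probes were well above background in NDMA animals 2 and 3 only, and in no water control animal. For a bound, each water control array was set at its lowest signal called well above background, or at the probe's measured signal where that was greater. By the processed signal the NDMA mean was then 1.92-fold higher by the first probe and 1.27-fold higher by the second. NDMA animal 1 entered that mean at its measured signal, though it was not well above background. These folds are a bound only if that signal is taken as measured, and for the processed signal only. The groups of both probes overlap. For Ccr2, Cpa3 and Blk, which have such bounds below, another background correction gave smaller differences. The measured means were -5.09 in NDMA and -6.65 in water control for the first probe, and -5.75 in NDMA and -7.11 in water control for the second. NDMA animals 2 and 3 shared slide 2, which held no water control array, so slide and treatment cannot be told apart for the 2 detections.

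Cxcl1 and Cxcl2 lie close together on chromosome 14, both on the minus strand, and the bases around their starts are shown because Cxcl1 had the largest difference of the tested members and Cxcl2 is the nearby gene of another Cxcr2 ligand. RefSeq sequence of assembly GRCr8 gives chr14:17479272-17479571 for Cxcl1 and chr14:17467206-17467505 for Cxcl2, each with 250 bases before and 50 bases after the start of the gene, read on the minus strand from 5′ to 3′. Capitals mark the bases covered by matches to the 10-base kappaB consensus, the sequence that NF-kappaB dimers bind, searched on both strands.
Cxcl1: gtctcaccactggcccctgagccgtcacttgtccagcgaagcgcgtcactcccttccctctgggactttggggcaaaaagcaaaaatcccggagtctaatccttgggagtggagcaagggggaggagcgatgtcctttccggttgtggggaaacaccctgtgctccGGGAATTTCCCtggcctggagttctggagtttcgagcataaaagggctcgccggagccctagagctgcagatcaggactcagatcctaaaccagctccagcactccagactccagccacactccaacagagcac
Cxcl2: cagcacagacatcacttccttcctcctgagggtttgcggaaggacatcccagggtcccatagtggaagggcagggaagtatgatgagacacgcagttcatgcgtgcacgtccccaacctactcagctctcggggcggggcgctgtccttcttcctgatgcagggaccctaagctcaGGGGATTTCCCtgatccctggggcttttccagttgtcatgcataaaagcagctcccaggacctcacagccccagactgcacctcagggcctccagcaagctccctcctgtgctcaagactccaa
In Cxcl1 the matches were 1 on the gene's strand, 84 to 75 bases before the start, and 1 on the other strand, 83 to 74 bases before it. In Cxcl2 they were 2 on the gene's strand, at 74 to 65 and 73 to 64 bases before the start, and 1 on the other strand at 73 to 64. The matches in each gene overlap one another. Among all 33469 RefSeq promoters of 300 bases, 1400 (4.18%) held a match. Of the 8 members, 7 had a promoter in the table, and the windows of S100a9, Mpo, Csf3r, Cxcr2 and Np4 held no match. These letters describe the windows only, and no binding was measured.

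Cxcr2, the receptor through which both chemokines act on neutrophils, lay at the edge of detection. Probe A_64_P024202 read -5.82, -5.22 and -5.23 in NDMA animals 1, 2 and 3, and -5.41, -5.88 and -4.92 in water control animals 1, 2 and 3. It was well above background on 2 of 3 arrays in each group, which left it outside the tested probes, and the groups overlap. Its other probe (A_44_P543428) was not well above background on any of the 6 arrays. Cxcr1, the related receptor, was likewise not well above background on any array.

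Csf3r, the receptor for granulocyte colony-stimulating factor, was read by probe A_64_P018271 at -4.18, -4.61 and -4.53 in NDMA animals 1, 2 and 3, and at -4.76, -3.91 and -4.42 in water control animals 1, 2 and 3. The highest and the lowest animal were both water controls. The log2 difference was -0.08 ± 0.23 (SE; 95% interval -0.64 to 0.48), with adjusted p = 0.886. A fall beyond -0.64 or a rise beyond 0.48 log2 units lies outside that interval. The dimmer probe A_44_P220455 read -5.49, -6.30 and -5.60 in NDMA, and -6.82, -6.45 and -6.00 in water control, and it was well above background in NDMA animals 1 and 3 and in no water control animal. Its NDMA mean was 1.23-fold higher by the processed signal, with the water control arrays set as for Cxcl2. NDMA animal 2 entered that mean at its measured signal, though it was not well above background. The groups of this probe overlap. The difference of the brighter probe was smaller than its SE and became 0.18 with slide as a block, so its sign is not settled. Whether the 2 probes differ was not tested. Csf3, the ligand, had 1 probe well above background on all 6 arrays, with a log2 difference of 0.07 (adjusted p = 0.822), while its other probe was not well above background on any array.

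S100a8 and S100a9 were each read by 1 probe that was well above background on all 6 arrays. S100a8 (A_44_P1055780) read -2.76, -2.16 and -2.34 in NDMA animals 1, 2 and 3, and -2.39, -1.33 and -3.63 in water control animals 1, 2 and 3. S100a9 (A_44_P353618) read -1.92, -1.17 and -1.23 in NDMA, and -1.53, -0.37 and -2.37 in water control. For both genes water control animal 2 was highest and water control animal 3 lowest, and all 3 NDMA animals lay between them. The animals fell in the same order for both genes: water control 2, NDMA 2, NDMA 3, water control 1, NDMA 1 and water control 3.

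S100a8 averaged -2.42 ± 0.31 in NDMA and -2.45 ± 1.15 in water control, and S100a9 averaged -1.44 ± 0.42 in NDMA and -1.43 ± 1.00 in water control (SD, n = 3 each). The log2 difference was 0.03 ± 0.55 for S100a8 (SE; 95% interval -1.29 to 1.35; adjusted p = 0.983). For S100a9 it was -0.01 ± 0.50 (SE; 95% interval -1.22 to 1.19; adjusted p = 0.991). Differences of more than 2-fold in either direction thus lie within both intervals. The value of S100a8 turned with the water control rat left out: it was 0.59 without animal 2 (adjusted p = 0.540) and -0.56 without animal 3 (adjusted p = 0.457). For S100a9 the corresponding values were 0.51 (adjusted p = 0.536) and -0.49 (adjusted p = 0.567). Within slide 1 the log2 difference was -0.32 for S100a8 and -0.49 for S100a9, and neither was called.

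**Figure D2:**
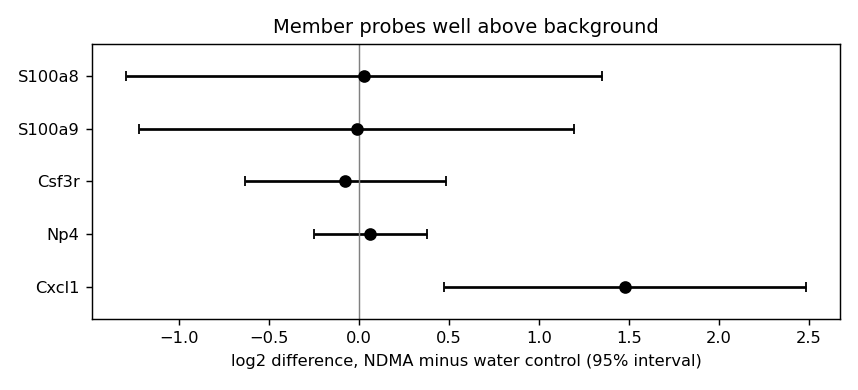
Log2 difference, NDMA minus water control, with its 95% interval from limma for the 5 member probes that were tested (n = 3 rats a group). The interval of Cxcl1 runs from 0.47 to 2.48, and those of S100a8, S100a9, Csf3r and Np4 include 0.

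The globins moved with the calprotectin genes among the water control rats. Hba-a1, the alpha chain of haemoglobin, deviated from its own mean over the 6 animals by -0.06, -0.07 and 0.04 in NDMA animals 1, 2 and 3, and by 0.13, 0.23 and -0.27 in water control animals 1, 2 and 3. S100a8 deviated by -0.33, 0.27 and 0.10 in NDMA, and by 0.05, 1.1 and -1.20 in water control. Water control animal 2 was again highest and animal 3 lowest, as they were for the beta globins Hbb and Hbb-b1 and for Alas2, the haem synthesis enzyme of red cell precursors. The other 2 of the 6 erythroid genes tested did not follow this order. Ahsp, the alpha globin chaperone, was lowest in water control animal 2, with a deviation of -0.43, and highest in NDMA animal 3, with 0.35. Slc4a1, the band 3 anion exchanger, read 3.17, 2.53 and 2.76 in NDMA, and 2.89, 2.54 and 3.06 in water control. Of 8 erythroid markers 6 were tested and none was called (Ahsp had the largest difference at 0.28, adjusted p = 0.431). Their summed signal, in units of the 75th percentile, was 705 to 772 in NDMA and 603 to 846 in water control. The part that blood left in the tissue has in the S100a8 and S100a9 values was not tested.

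**Figure D3:**
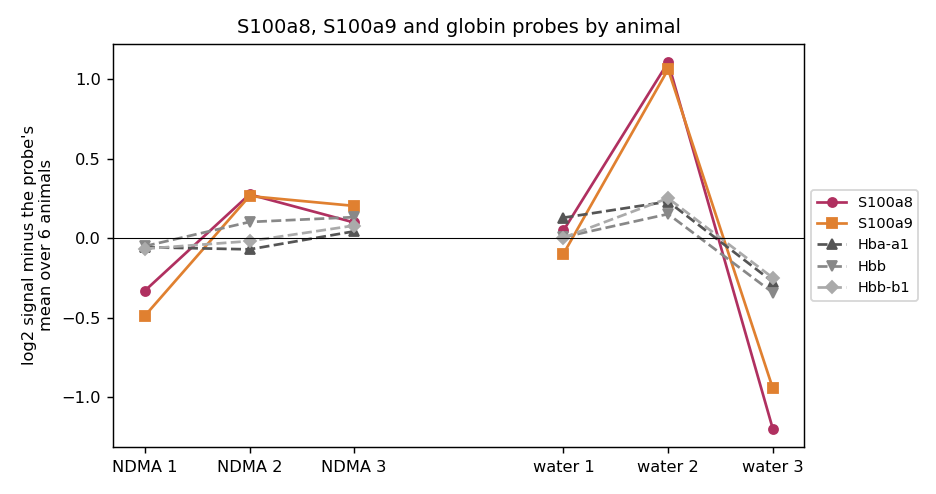
Log2 signal minus the probe's own mean over the 6 animals for S100a8, S100a9 and the globins Hba-a1, Hbb and Hbb-b1, with the NDMA animals left of the water control animals. All 5 probes are highest in water control animal 2 and lowest in water control animal 3, and the S100 probes cover a wider range than the globin probes.

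S100a9 was the gene with the profile most like that of S100a8, and S100a8 the gene most like S100a9, among 11762 genes with a probe well above background on all 6 arrays. Likeness was the root mean square difference of mean-centred log2 signals over the 6 animals, and it was 0.144 for this pair. Apobec1, a cytidine deaminase that edits apolipoprotein B mRNA, came next for both (0.222 for S100a8 and 0.228 for S100a9). For Cxcl1 the closest were Il1b, the cytokine interleukin-1 beta (0.211), and Cfd, complement factor D (0.252). Il1b read -0.11, 0.00 and 0.92 in NDMA animals 1, 2 and 3, and -0.91, -0.19 and -1.76 in water control animals 1, 2 and 3, with a log2 difference of 1.22 and adjusted p = 0.230. Cfd had a log2 difference of 1.45 and adjusted p = 0.0679, and was called under normexp (1.23, adjusted p = 0.0452). Csf3r and Np4 varied little, and their closest profiles were Pknox1 (0.0807) and Proser3 (0.126) for Csf3r, and Bnipl (0.0329) and Kcnma1 (0.0338) for Np4.

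Np4 varied least of the 5 tested members. Its probe A_44_P130254 read -0.24, -0.06 and 0.22 in NDMA animals 1, 2 and 3, and -0.15, -0.09 and -0.02 in water control animals 1, 2 and 3. All 6 animals lay within 0.46 log2 units. The log2 difference was 0.06 ± 0.13 (SE; 95% interval -0.25 to 0.38), with adjusted p = 0.828. The other Np4 probe (A_64_P032504) was not well above background on any of the 6 arrays. The probes of this gene therefore disagree on whether it was detected. Defensin genes can be near-identical copies whose transcripts share a probe, but whether A_44_P130254 reads other defensin transcripts was not tested. Of the other listed defensins with a probe, Defa9 was detected on 1 water control array, and Defa5, Defa6, Defa8, Defa11 and RatNP-3b on none.

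Other neutrophil genes were called in 2 cases. Of 41 listed genes outside the members, 33 had a probe, 16 were tested, 2 rose and none fell, with a median log2 difference of 0.36 against -0.04 over the 12175 genes tested by their brightest probe. Over those genes, 3.56% rose and 0.485% fell. The groups did not overlap for 6 of the 16 tested genes, all higher in NDMA. Over all tested probes the share was 10.9% in that direction and 26.9% in either direction. Of the 6 genes, Fpr1 and Il1r2 passed the filter only through the NDMA group, and were well above background on 2 water control arrays. Among the genes not called in limma, Ncf4 (0.82, adjusted p = 0.0503) and Il1r2 (1.07, adjusted p = 0.0708) lay near the threshold. Of the 16 log2 differences, 10 were above 0. The 2 that rose were Fcgr3a, an Fc receptor (1.35 ± 0.21 SE, adjusted p = 0.0289), and Ncf1, a subunit of the NADPH oxidase (0.80 ± 0.14 SE, adjusted p = 0.0373). Macrophages also express both. Fcgr3a read 0.83, 1.12 and 1.47 in NDMA animals 1, 2 and 3, and -0.51, 0.08 and -0.20 in water control animals 1, 2 and 3. With slide as a block the differences were 1.03 for Fcgr3a (adjusted p = 0.256) and 0.77 for Ncf1 (adjusted p = 0.288).

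Of the 33 genes with a probe, 12 stayed below that level on all 6 arrays. They included Elane and Ctsg, the serine proteases of the azurophil granule, Ltf, the lactoferrin of the specific granule, and Mmp8, the neutrophil collagenase. Other neutrophil genes of the list were well above background on all 6 arrays and not called. Among them were Prtn3 (log2 difference -0.02), Camp (-0.11), Mmp9 (0.02), Retnlg (-0.002) and Pglyrp1 (-0.14). Between 16 and 20 of the 33 genes were well above background in an NDMA rat, against 14 to 17 in a water control rat. Over all probes, 43519, 45059 and 46248 reached that level in NDMA animals 1, 2 and 3. The water control numbers were 44899, 43321 and 43016 for animals 1, 2 and 3. The highest were thus those of NDMA animals 2 and 3, on slide 2. Whether the counts of the list follow slide or treatment was not tested. Lcn2, the granule lipocalin that injured tubules also make, read -1.92, -0.67 and -1.82 in NDMA animals 1, 2 and 3, and -2.98, -2.46 and -1.22 in water control animals 1, 2 and 3. Its groups overlap, with water control animal 3 above both NDMA animals 1 and 3, and its log2 difference was 0.75 (adjusted p = 0.479). The summed signal of the list was 8.94 to 24.5 in NDMA and 7.61 to 9.34 in water control. Most of that spread came from Slpi, a secreted inhibitor of neutrophil elastase that epithelia also make, which read 3.32, -2.09 and 3.82 in NDMA animals 1, 2 and 3, and 1.47, 1.63 and 1.25 in water control animals 1, 2 and 3. The sums of the groups overlap only through NDMA animal 2 (8.94), where Slpi was lowest. Sums without Slpi are not given.

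Among 27 other attractants, growth factors, receptors and adhesion molecules of neutrophils, 23 had a probe, 17 were tested and 1 rose. Over all genes tested by their brightest probe, 3.56% rose. The median log2 difference of the 17 genes was 0.12. Icam1, the endothelial ligand of the neutrophil integrins, was the gene that rose (0.67 ± 0.10 SE, adjusted p = 0.0218). It read 2.27, 2.38 and 2.54 in NDMA animals 1, 2 and 3, and 1.70, 1.69 and 1.78 in water control animals 1, 2 and 3, with no overlap. With slide as a block its difference was 0.55 (adjusted p = 0.209). The groups did not overlap for 8 of the 17 tested genes, against 26.9% of all tested probes in either direction and 10.9% with NDMA higher. Besides Icam1 and Il1b, those higher in NDMA were Sele (1.23), Tnf (0.86), Pf4 (0.53), Ccl3 (0.52) and Csf2ra (0.16). Sele passed the filter only through the NDMA group, and was well above background on 1 water control array. Csf2rb was lower (-0.24), and of these genes only Icam1 was called. Cxcl6, another ELR chemokine, was not well above background on any array, nor were Il6 and Il1a. Cxcl3 had no matched probe.

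In the S100 family outside the members, 13 of 15 genes had a probe and 10 were tested. S100a4, a calcium-binding protein of fibroblasts and leukocytes, was the 1 that rose (0.90 ± 0.15 SE, adjusted p = 0.0335), and with slide as a block its difference was 1.02 (adjusted p = 0.185). The median of the 10 genes was 0.29, and 3.56% of all genes tested by their brightest probe rose. Epx, the eosinophil peroxidase related to Mpo, was not well above background on any array.

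The CXC chemokines without the ELR motif, which mostly act on lymphocytes, give the contrast within the same gene family. All 8 listed genes were tested, 3 rose and none fell, with a median of 0.26. Of all genes tested by their brightest probe, 3.56% rose and 0.485% fell. Cxcl9, Cxcl10 and Cxcl11, the interferon-induced ligands of Cxcr3, had log2 differences of 5.91 (adjusted p = 0.00280), 3.71 (adjusted p = 0.00215) and 2.02 (adjusted p = 0.00620). With slide as a block these were 5.84, 3.72 and 1.71, and all 3 were still called; within slide 1, with 1 NDMA animal, none was (adjusted p 0.0912 to 0.0975). The other 5 had differences from -0.58 to 0.54. Whether the difference of Cxcl1 differs from those of Cxcl9, Cxcl10 and Cxcl11 was not tested.

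Most markers of macrophages and T cells rose in the NDMA kidneys. Over all genes tested by their brightest probe, 3.56% rose and 0.485% fell, and the median log2 difference was -0.04. Of 18 macrophage and monocyte markers, 16 were tested and 12 rose, of which 1 was still called with slide as a block and 7 to 10 were called with 1 animal left out; the median log2 difference was 1.15, with a summed signal of 266 to 293 in NDMA against 103 to 138 in water control. Most of that sum was the lysozyme gene Lyz2, and without it the sum was 82.4 to 97.3 in NDMA and 35.4 to 43.1 in water control. The genes that rose included Cd68, a lysosomal glycoprotein (1.48, adjusted p = 0.00736), C1qb, a complement chain (1.33), and Ptprc, the CD45 of all leukocytes (1.29). The 4 tested markers not called in limma were Adgre1 (0.15, adjusted p = 0.664), Cx3cr1 (0.14, adjusted p = 0.671), Cd14 (0.35, adjusted p = 0.293) and Itgam. Cd163 was not tested, and its listed probe was well above background on 2 water control arrays and on no NDMA array. Counting every probe of Cd163, 1 NDMA array reached that level. Itgam, the integrin chain that neutrophils share with macrophages, had a log2 difference of 0.81 with adjusted p = 0.498, and read -3.44, -3.32 and -2.88 in NDMA animals 1, 2 and 3, and -5.45, -3.12 and -3.50 in water control animals 1, 2 and 3. Of 11 T cell markers, all were tested and 8 rose, with a median of 1.31; with slide as a block 0 were called, and with 1 animal left out 4 to 8. The summed T cell signal was 6.19 to 7.01 in NDMA and 2.03 to 2.77 in water control. With slide as a block Cd68 differed by 1.32 (adjusted p = 0.0852) and the T cell receptor chain Cd247 by 1.83 (adjusted p = 0.0525), neither of them called. Of 5 B cell markers tested, 1 rose: Blk, a kinase of B cells, was not well above background in any water control animal and was at least 1.71-fold higher in NDMA by the processed signal (adjusted p = 0.0351). The Blk call was lost with slide as a block (adjusted p = 0.237), and under normexp, another background correction, the log2 difference was 0.17 (adjusted p = 0.318), against 2.08 as reported. Macrophages also express Fcgr3a, Ncf1 and Cxcl1, and the part that these cells have in the values of those genes was not tested. Of the 16 renal cortex markers, none rose and 1 fell: Lrp2, the endocytic receptor megalin of the proximal tubule, fell by 0.57 (adjusted p = 0.0439), and the median was -0.20. The Lrp2 call was lost with slide as a block (-0.44, adjusted p = 0.364) and on leaving out any 1 of the 6 animals (adjusted p 0.0577 to 0.141).

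**Figure D4:**
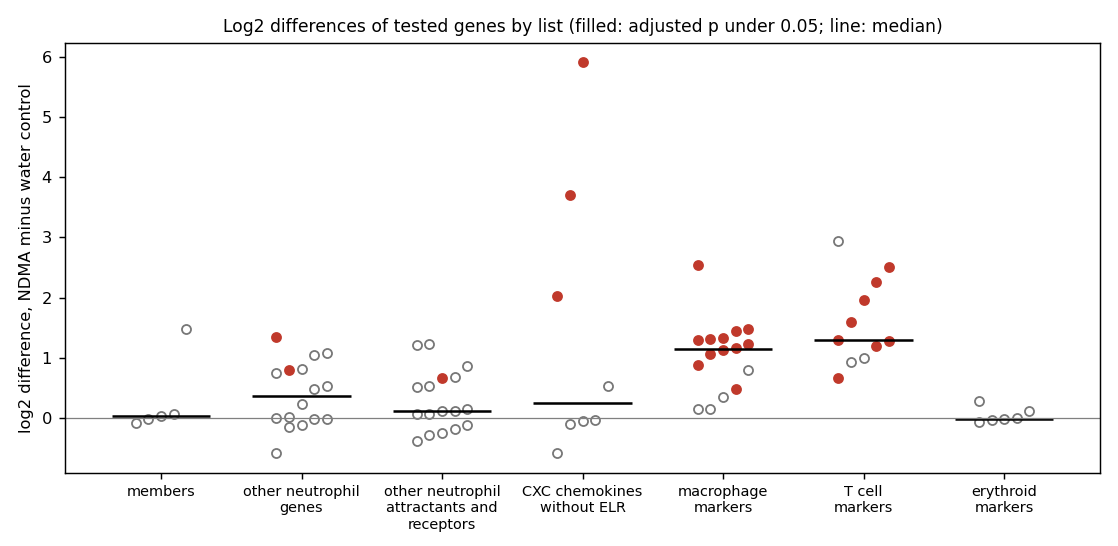
Log2 difference, NDMA minus water control, of each tested gene by its brightest probe, for the members and 6 other gene lists, with filled points for adjusted p under 0.05 and a line at each list's median. The member list has a median of 0.03 and no filled point, the macrophage list a median of 1.15 and the T cell list a median of 1.31.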

How the data were processed

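Each spot's processed intensity, as deposited, is Cy3 signal that the authors' scanner software corrected for background and spatial trend within the array, without scaling across arrays, per the file headers. The software was Agilent Feature Extraction (10.7 in the submitters' processing notes, 10.7.1.1 in the file headers). Dividing an array's processed signal by its 75th percentile gave the linear ratio in the authors' value table to within 0.00174 log2 units (values above 0.1), so scale, centring and direction of that table are known. Its column medians were 0.115, 0.112 and 0.113 for NDMA animals 1, 2 and 3, and 0.112, 0.110 and 0.113 for the water controls.

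Outlier spots (18 values among the probes tested) were set missing. Probes were named by unversioned accession through the RefSeq table of rat assembly GRCr8: 27460 of 61657 were named and 34197 were not. The array header names build rn4, whose coordinates were not used. The comparison used lmFit and eBayes of limma 3.58.1 (R 4.3.3) over 43118 probes, two-sided, with 4 residual degrees of freedom and 2.40 from the prior. Standard errors and 95% intervals are moderated. An exact permutation of 3 against 3 animals cannot go below p = 0.1, so none is given. The script was tested on simulated data. Alternatives changed background correction, scaling, filter, variance model, slide, pairing, animals, source of values and outlier handling. Normexp used the deposited median intensity and its background intensity, with offset 50, in place of the planned mean intensity.

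Members and lists were chosen with earlier results of these data known. Named in each list are up to 4 called genes by smallest p, or else the 2 with the largest difference, with Lcn2, Itgam, Cxcr1, Csf3, Elane, Cxcl3 and Cxcl6 always and the 2 nearest profiles of each member well above background. For Ccr2, Cd247, Zap70, Cd3d, Cd3g and Siglec5, which that rule also names, the values stand in the list counts or in the closing section. A gene that the rule names in one list is not reported here. Genes named beyond that rule were chosen after their values were seen. The number of arrays limits the precision.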

Additional observations from a re-analysis of the deposited data

How the results depend on the processing

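In limma, 0 member probes were called under each of the alternatives run, with 1 of 5 at an unadjusted p under 0.05 in the analysis as reported, and 0 member genes were called when the adjustment ran over genes. Of all probes, 1289 were called; the count was 488 with no filter on dim probes, 82 with slide as a block (48 of them among the 1289), 0 within slide 1 (4667 at an unadjusted p under 0.05), and 464 to 987 with 1 animal left out. Of the probes of the other lists, 29 were called; the counts were 15, 4 (Cxcl9, Cxcl10, Cxcl11 and Ccr2) and 0 under the same first 3 settings and 15 to 24 with 1 animal left out. The replicate numbers do not pair the animals, since the deviations of same-numbered animals correlated at 0.0256, -0.0505 and 0.00791. With a replicate block 511 probes and 15 list probes were called.

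Several small differences turned sign. With slide as a block, and equally within slide 1, the log2 differences were -0.32 for S100a8, 0.18 for Csf3r, -0.15 for Np4, -0.22 for Apobec1, 0.046 for Pknox1, 0.044 for Proser3, -0.14 for Bnipl and -0.18 for Kcnma1. With normexp they were -0.14 for S100a8, -0.033 for Bnipl and -0.088 for Kcnma1. With normexp and quantile together, chosen after seeing the data, they were -0.090 for S100a8, 0.0069 for Csf3r and -0.061 for Kcnma1. Kcnma1 was -0.0097 with quantile normalization and -0.012 with median centring. Leaving out 1 animal gave -0.56 to 0.59 for S100a8, -0.49 to 0.51 for S100a9, -0.27 to 0.15 for Csf3r, -0.062 to 0.17 for Np4, -0.018 to 0.23 for Hbb, -0.035 to 0.15 for Csf3, -0.48 to 0.51 for Apobec1, -0.072 to 0.17 for Bnipl and -0.10 to 0.10 for Kcnma1. Cxcl1 stayed higher in NDMA in each alternative, with 1.01 under normexp and 1.09 to 1.76 with 1 animal left out. With normexp Blk was 0.17 and not called, against 2.08 as reported, and Ccr2 was 0.78, against 2.55. The calls of Fcgr3a, Ncf1, Icam1, S100a4, Blk and Lrp2 were lost with slide as a block, with no filter and on leaving out some of the animals, with the direction kept. The cause was not tested.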

Other observations

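Markers of the granulocytes other than neutrophils were mostly dim. Of 10 eosinophil and basophil markers 9 had a probe, 3 were tested and none was called by limma with all 6 animals. Cpa3, the carboxypeptidase of mast cells and basophils, read -3.48, -5.64 and -3.60 in NDMA animals 1, 2 and 3, and -6.74, -6.57 and -6.06 in water control animals 1, 2 and 3. It was well above background in all 3 NDMA animals and in no water control animal, at least 3.63-fold higher in NDMA by the processed signal, with adjusted p = 0.121. Under normexp its log2 difference was 0.60, against 2.22 as reported, and without NDMA animal 2 it was 2.92 and called (adjusted p = 0.0236). Fcer1a, the alpha chain of the IgE receptor of the same cells, read -4.47, -7.14 and -5.54 in NDMA, and -8.39, -7.04 and -6.91 in water control, and was likewise lowest of the NDMA animals in animal 2. It was well above background in NDMA animals 1 and 3 only and was not tested. Siglec5, a lectin of myeloid cells, had a log2 difference of -0.68 (adjusted p = 0.159), and without NDMA animal 3 it was -0.92 and called (adjusted p = 0.0298).

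Single animals stood out in other genes, which were chosen after their values were seen. Hp, the haemoglobin-binding acute-phase protein haptoglobin, read 0.76, -2.36 and -1.94 in NDMA animals 1, 2 and 3, and -2.13, -1.26 and -3.30 in water control animals 1, 2 and 3. Selp, the P-selectin of platelets and endothelium, was well above background on 1 array, that of water control animal 2 (-4.27), which was also the highest animal for S100a8 and S100a9. Ccr2, the monocyte receptor for Ccl2, was not well above background by its listed probe in any water control animal. Counting every probe of Ccr2, 1 water control array reached that level. The listed probe was at least 5.57-fold higher in NDMA by the processed signal (adjusted p = 0.00679 in limma). Normexp gave 0.78 on the log2 scale, against 2.55 as reported. The T cell genes Cd247, Zap70, Cd3d and Cd3g had log2 differences of 1.96, 1.20, 1.29 and 2.26, each called by limma.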
